A study of Mus musculus with 2 samples.

Results

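The intermediate filament genes outside the keratin family, together with plectin, the giant linker that ties their filaments to other structures, were examined in the adult mouse urinary bladder. The set comprises 10 genes chosen by name: Des, Vim, Synm, Nes, Gfap, Prph, Lmna, Lmnb1, Lmnb2 and Plec. All 10 matched a row in the tables of both libraries, out of 43346 Ensembl genes listed. The study sequenced polyadenylated RNA from whole bladders of C57BL/6J mice aged 8 weeks, taken from littermates of mixed sex, with no treatment and no genetic change named. It holds 1 group of 2 libraries, called replicate 1 and replicate 2 here (library 1 and library 2 in the plots), so no contrast between conditions exists. Both libraries name the same donor entry, and how many animals went into each is not stated, so each SD covers how these libraries differ from one another, whether by animal or by handling.

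Intermediate filaments are rope-like polymers of coiled-coil proteins that give cells mechanical strength. Cytoplasmic members are expressed by cell type: desmin and synemin in muscle, vimentin in mesenchymal, endothelial and other non-epithelial cells, nestin in progenitor and some vascular cells, GFAP in glia and peripherin in peripheral neurons, while keratins fill this role in epithelia such as the urothelium. The lamins form the meshwork under the inner nuclear membrane of nucleated cells. Plectin binds intermediate filaments through its tail and actin and integrins through its head, and its alternative first exons send it to different sites in the cell. The bladder wall joins urothelium, connective tissue, vessels, nerves and a thick coat of smooth muscle, the detrusor.

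Library depth came to 99367453 and 105057347 expected counts (estimated fragments) on genes, for which 3 counts, the limit that a count of 0 allows, amount to a CPM (counts rescaled to a common library total) of 0.0302 and 0.0286. Levels are given in TPM, an abundance per transcript length scaled to the library total, as the mean ± SD of the 2 libraries. The tissue label matched its markers: 6 of 6 smooth muscle contractile genes, 9 of 9 keratins and uroplakins of the urothelium, 6 of 6 fibroblast, 6 of 6 endothelial and 6 of 6 pericyte genes stood at 1 TPM or more in both libraries. Of all Ensembl genes, 32.7% reached this level. Summed over its list, the urothelium took 0.535% and 0.689% of all gene TPM in replicates 1 and 2, and the smooth muscle list 2.77% and 2.60%. In whole tissue, fewer cells of a type and less RNA per cell cannot be told apart.

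Stretches of sequence that tell some transcript forms of these genes apart are shown first, from the GENCODE M21 transcripts on mm10. In Lmna the end of the coding sequence separates lamin A from lamin C. The lamin A transcript Lmna-201 (chr3:88482346-88482363 and chr3:88482077-88482100, minus strand) ends in 4 codons of the CaaX type, the site of farnesylation, shown in capitals. The lamin C transcript Lmna-203 (chr3:88483300-88483341, minus strand) reads through the end of exon 10 into 18 coding bases of its own, in capitals, and has no such motif. The longer Lmnb2 transcript (chr10:80903212-80903214 and chr10:80902862-80902900, minus strand) is shown for comparison, with its last 4 codons, which begin with the codon TGC, in capitals.
Lmna-201: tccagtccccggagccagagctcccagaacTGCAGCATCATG
Lmna-203: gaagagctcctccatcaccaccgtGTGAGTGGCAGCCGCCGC
Lmnb2: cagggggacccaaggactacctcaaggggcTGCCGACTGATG

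Plec has 11 alternative exons that join the same second exon. The sequences below give the last 30 bases before that join in lower case, with the first 15 bases of the shared exon (chr15:76194798-76194812, minus strand) in capitals, for the 6 exons with most junction reads. The lower-case bases lie at chr15:76229358-76229387 for Plec-206, chr15:76195424-76195453 for Plec-201, chr15:76197980-76198009 for Plec-204, chr15:76199549-76199578 for Plec-218, chr15:76231174-76231203 for Plec-209 and chr15:76208965-76208994 for Plec-203.
Plec-206: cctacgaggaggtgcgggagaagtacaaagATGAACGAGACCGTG
Plec-201: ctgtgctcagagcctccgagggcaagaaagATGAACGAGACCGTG
Plec-204: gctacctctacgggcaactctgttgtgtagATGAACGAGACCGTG
Plec-218: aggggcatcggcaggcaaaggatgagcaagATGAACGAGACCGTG
Plec-209: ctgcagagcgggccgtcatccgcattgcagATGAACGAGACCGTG
Plec-203: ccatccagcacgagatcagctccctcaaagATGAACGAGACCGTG

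A further 3 stretches mark forms of the filament proteins themselves. Exon 8 of Vim-201 (chr2:13581613-13581698, plus strand, 86 bases, all in capitals) is skipped in Vim-206. The 96 bases in capitals in Prph-202 (chr15:99056922-99057047 with 15 flanking bases on each side, plus strand) are intron 4 of Prph-201, kept in frame as 32 extra codons. In Synm-201 the join of exon 4 to exon 5, the latter in capitals (chr7:67734460-67734489 and chr7:67733539-67733553, minus strand), removes 906 bases, or 302 codons, that the longer form Synm-202 keeps.
Vim-201: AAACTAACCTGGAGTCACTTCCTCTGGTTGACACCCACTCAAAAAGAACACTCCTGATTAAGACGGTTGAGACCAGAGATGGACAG
Prph-202: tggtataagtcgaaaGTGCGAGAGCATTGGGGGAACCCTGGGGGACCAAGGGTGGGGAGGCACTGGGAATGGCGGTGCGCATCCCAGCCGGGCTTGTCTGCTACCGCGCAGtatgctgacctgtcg
Synm-201: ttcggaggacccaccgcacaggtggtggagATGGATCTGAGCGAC

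Desmin dominated the group. Of the 10 genes, 9 stood at 1 TPM or more in both libraries, against 32.7% of all Ensembl genes, and Gfap was the exception. Levels spanned from 0.400 to 1624 TPM. Together the genes took 0.324% of all gene TPM in replicate 1 and 0.279% in replicate 2 (mean 0.302% ± 0.0319). The 53 keratin genes of the annotation took 0.293% and 0.333%, so the keratin sum was lower than that of these genes in replicate 1 and higher in replicate 2. Des and Vim alone made up 61.7% and 22.4% of the summed TPM of the 10 genes in replicate 1, and 53.4% and 32.1% in replicate 2.

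**Figure D1:**
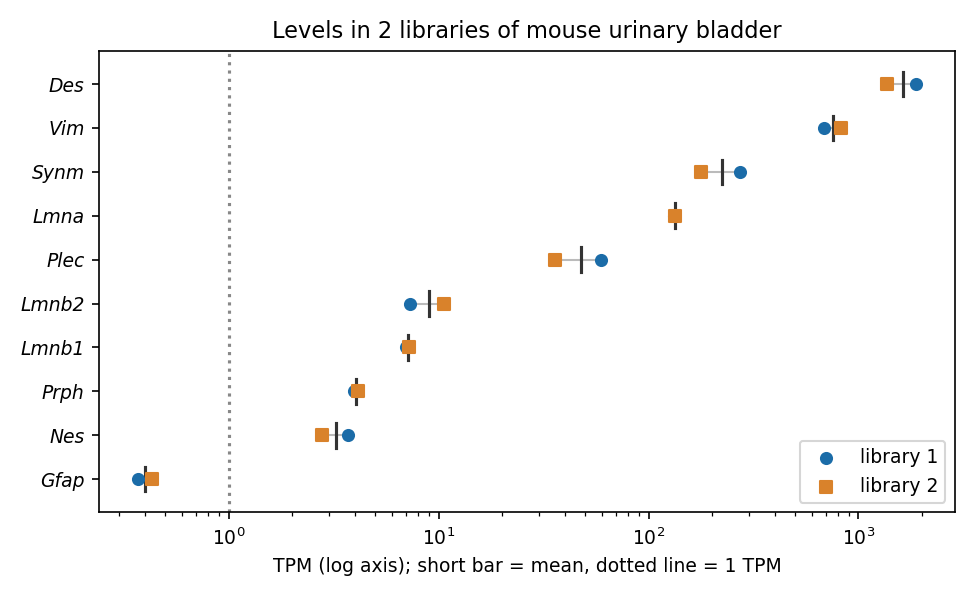
Level of each gene in TPM (logarithmic axis) in the 2 libraries, with a short bar at the mean and a dotted line at 1 TPM. Des lies highest at a mean of 1624 TPM, Gfap is the only gene left of the line, and in library 1 Lmnb2 (7.33 TPM) lies next to Lmnb1 (7.01 TPM), and Prph (3.95 TPM) next to Nes (3.70 TPM).

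Des (chr1:75360329-75368579, plus strand) encodes desmin, the main filament protein of muscle cells. Replicate 1 gave 1876 TPM and replicate 2 gave 1372 TPM, a mean of 1624 ± 357 TPM, the 68th highest of all genes. It was higher in replicate 1. Des-201, the transcript with the full coding sequence of 469 codons, held 96.6% and 95.8% of Des TPM, and the rest belonged to retained-intron forms.

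Vim (chr2:13573927-13582826, plus strand) encodes vimentin, the filament protein of fibroblasts, endothelium and many other mesenchymal cells. Its level was 682 and 825 TPM in replicates 1 and 2, a mean of 754 ± 101 TPM and the 160th highest of all genes. Here the second library was the higher one. Desmin exceeded vimentin in both libraries, 2.75-fold in replicate 1 and 1.66-fold in replicate 2, a log2 ratio of 1.10 ± 0.51 with 0.5 TPM added to each level, which is larger than the spread between the libraries.

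That ratio depended on which transcripts of Vim were counted. Vim-203, a retained-intron fragment of 535 bases, held 33.4% and 27.6% of Vim TPM but only 7.83% ± 0.84 of its expected counts, since TPM weights a short transcript up. Vim-204, another retained-intron form, held 3.45% of Vim TPM in replicate 1 and 16.7% in replicate 2. The 3 protein-coding forms together came to 430 and 459 TPM (444 ± 20.6). Against these, Des-201 stood 4.22-fold higher in replicate 1 and 2.86-fold higher in replicate 2. Beside the Vim levels of 682 and 825 TPM, Vim-204 stood at 23.5 and 137 TPM, and Vim-201 at 324 and 299 TPM.

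Synm (chr7:67730160-67759742, minus strand) encodes synemin, a large filament protein that co-assembles with desmin or vimentin and binds the dystrophin complex. Replicates 1 and 2 gave 271 and 178 TPM (225 ± 65.7 TPM), and replicate 1 was the higher. Per molecule it stood 6.92-fold and 7.70-fold below desmin, a log2 ratio of -2.86 ± 0.11. Synm-201, the shorter of its protein forms with 1259 codons, held 74.3% and 77.9% of Synm TPM, and Synm-202, with 1561 codons, held 25.7% and 22.1%. These shares kept their order in both libraries (76.1% ± 2.5 for Synm-201).

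Lmna (chr3:88480147-88509956, minus strand) encodes the A-type lamins and was the most even of the highly expressed genes, at 132 and 134 TPM in replicates 1 and 2 (133 ± 1.84 TPM). The B-type lamins, which stay farnesylated and attached to the membrane, were far lower. Lmnb1 (chr18:56707813-56753424, plus strand) stood at 7.01 and 7.21 TPM (7.11 ± 0.14). Lmnb2 (chr10:80901203-80918245, minus strand) stood at 7.33 and 10.6 TPM (8.99 ± 2.34). Lmna exceeded Lmnb1 18.8-fold in replicate 1 and 18.6-fold in replicate 2, a log2 ratio of 4.13 ± 0.01, the tightest of the 7 ratios computed between these genes. Lmnb2 and Lmnb1 did not differ beyond their spread (log2 ratio 0.30 ± 0.33).

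The 3 genes of nervous or progenitor cells were low. Prph (chr15:99055174-99058978, plus strand), which encodes peripherin, stood at 3.95 and 4.12 TPM (4.04 ± 0.12). Nes (chr3:87971078-87980451, plus strand), which encodes nestin, stood at 3.70 and 2.79 TPM (3.25 ± 0.64), and vimentin, its usual polymer partner, was 184-fold and 296-fold higher. Gfap (chr11:102887336-102900912, minus strand), the filament of astrocytes and of some peripheral glia, stood at 0.370 and 0.430 TPM from 51 and 88 expected counts, above the limit of 3 counts. Prph exceeded Gfap 10.7-fold and 9.58-fold in TPM. The log2 ratio of this pair depended on the amount added to each level, which exceeds that of Gfap itself: it was 2.33 with 0.5 TPM added, 3.05 with 0.1 TPM and 1.85 with 1 TPM, and 0.88 by the mm9 RPKM with 0.5 added. Prph and Nes did not differ beyond their spread (log2 ratio 0.29 ± 0.29).

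Glia and neurons themselves were represented by other markers. All 7 glial genes of the list were at 1 TPM or more in both libraries, led by the myelin gene Mbp (25.5 ± 0.45 TPM), and each stood above Gfap. Of 7 neuronal genes 4 reached this level: Uchl1 (432 ± 151 TPM), Stmn2 (7.79 ± 0.77 TPM), Tubb3 (2.67 ± 0.18 TPM) and Snap25 (1.43 ± 0.29 TPM). Chrna3 and Elavl4 were under 1 TPM in both. The neurofilament genes Nefl, Nefm and Nefh, partners of peripherin in axons, were also under 1 TPM (0.520, 0.330 and 0.240 TPM on average), as were Ina, Bfsp2 and Lmntd1. Of the 11 other non-keratin filament genes 5 reached 1 TPM in both libraries, and Iffo1 (20.9 ± 0.83 TPM), Lmntd2 (7.37 ± 1.96 TPM) and Iffo2 (6.33 ± 0.77 TPM) were the highest of them. Proliferation genes were low too: 5 of 6 reached 1 TPM, led by Cdk1 at 11 ± 3.61 TPM, followed by Top2a (3.88 ± 0.48 TPM) and Ccna2 (3.67 ± 0.24 TPM), and Bub1 stayed under 1 TPM.

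Plec (chr15:76170974-76232574, minus strand) reached 59.4 and 35.7 TPM in replicates 1 and 2 (47.6 ± 16.8 TPM), 31.6-fold and 38.4-fold below desmin (log2 ratio -5.11 ± 0.19). Its main transcript, Plec-206, is 14855 bases long, and the gene level came from 66674 and 44276 expected counts. Among the related plakins, Macf1 (77.3 ± 7.96 TPM) and Dst (65 ± 15.2 TPM) had higher means than Plec, and Ppl (19.8 ± 4.17 TPM), Evpl and Dsp, the plakins of the cornified layer and of desmosomes, lower ones. The remaining plakin of the list, Eppk1, matched no row.

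Of the 9 neighbouring pairs in the order of levels, 7 differed in the same direction in both libraries by more than the spread: Des over Vim, Vim over Synm, Synm over Lmna, Lmna over Plec, Plec over Lmnb2, Lmnb1 over Prph and Nes over Gfap. The authors' mean RPKM values on the older mm9 assembly gave the same order except that Nes (0.618 RPKM) stood above Prph (0.543 RPKM), one of the 2 pairs within the spread.

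Listed partners of desmin, plectin and the lamins were all detected, at a level that 32.7% of the 43346 Ensembl genes reached in both libraries. Whether partners pass it more often than other genes of their kind was not tested. Of the 10 chaperones and anchoring partners of desmin all stood at 1 TPM or more in both libraries, the highest being the small heat shock genes Hspb1 (611 ± 13.3 TPM) and Hspb8 (171 ± 1.00 TPM) and the focal adhesion gene Vcl (169 ± 10.3 TPM). The 6 hemidesmosome and integrin partners of plectin were all above 1 TPM as well, led by Itgb1 (325 ± 36.4 TPM), Cd151 (186 ± 12.2 TPM) and Itga3 (41.3 ± 0.23 TPM), and the hemidesmosomal integrin subunit Itgb4 stood at 21.8 ± 4.50 TPM. The same held for 8 of 8 lamina partners, with Banf1 (129 ± 19.7 TPM), Emd (69.4 ± 6.11 TPM) and Tmpo (28.6 ± 4.22 TPM) highest. It also held for 6 of 6 linkers between nucleus and cytoskeleton, with Sun1 (67.7 ± 2.06 TPM), Sun2 (50.8 ± 10.4 TPM) and Syne2 (42.4 ± 3.54 TPM) highest. All 6 lamin processing enzymes were detected, led by Fnta (35.1 ± 3.51 TPM), a farnesyltransferase subunit, and Zmpste24 (21 ± 1.73 TPM), the protease that matures prelamin A, followed by Icmt (18.7 ± 0.45 TPM).

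Desmin is shared by smooth and striated muscle. All 6 smooth muscle genes but only 3 of 6 striated muscle genes stood at 1 TPM or more in both libraries. Acta2 (8674 ± 235 TPM), Tagln (6417 ± 30.4 TPM) and Actg2 (6131 ± 271 TPM) led the smooth muscle list. In the striated list Acta1 (1206 ± 233 TPM), Ckm (261 ± 2.64 TPM) and Tnnt3 (55.7 ± 0.30 TPM) were detected. The fast myosin genes Myh1 and Myh4 and the calcium pump gene Atp2a1, more restricted to skeletal muscle, were under 1 TPM in both libraries, at most 0.400 TPM. Among genes of vimentin-bearing cells, Dcn (2525 ± 217.6 TPM), Col3a1 (1318 ± 111 TPM) and Col1a1 (894 ± 251 TPM) led the fibroblast list. The highest endothelial genes were lower, Egfl7 (132 ± 34.1 TPM), Pecam1 (41.1 ± 7.39 TPM) and Esam (41.1 ± 2.72 TPM). So were the highest pericyte genes, Rgs5 (101 ± 2.64 TPM), Pdgfrb (26.1 ± 4.90 TPM) and Abcc9 (18.9 ± 6.00 TPM). How much each cell type adds to Des or Vim was not tested.

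Between the libraries no gene of the set reached a 2-fold difference. The ratio of replicate 2 to replicate 1 is given as log2 after adding 0.5 TPM, relative to the median (0.08) of the 14533 genes whose mean level was 1 TPM or more. With 1 library on each side there is no p-value. Of the 9 genes that passed this level 0 were past 2-fold, where 1.84% of all 14533 genes were. At 1.5-fold, 2 of 9 were lower in replicate 2 (6.08% of all genes), namely Plec (-0.81) and Synm (-0.69), and 0 were higher (2.21% of all genes). Des (-0.54) and Nes (-0.44) were lower by less, Lmnb2 (0.43) and Vim (0.19) were higher, and Lmna, Lmnb1 and Prph lay between -0.06 and -0.03. The median of the 9 was -0.06.

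Transcript length moved with this ratio. Among genes with transcripts under 1500 bases the median was 0.12, and it was 0.05 from 1500 to 3000 bases, -0.10 from 3000 to 6000, -0.24 from 6000 to 12000 and -0.30 above that. Across the 14533 genes, which are not independent replicates, the Spearman correlation with length was -0.35. Plec lies in the longest class of 42 genes, of which 2 were lower, and Synm in a class of 874 genes, of which 74 were lower. Des was lower than its class by 0.59, with 238 of 5555 genes below it, and Lmnb2 higher than its class by 0.53, with 77 of 4299 genes above it. The part of length in these differences was not tested further.

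**Figure D2:**
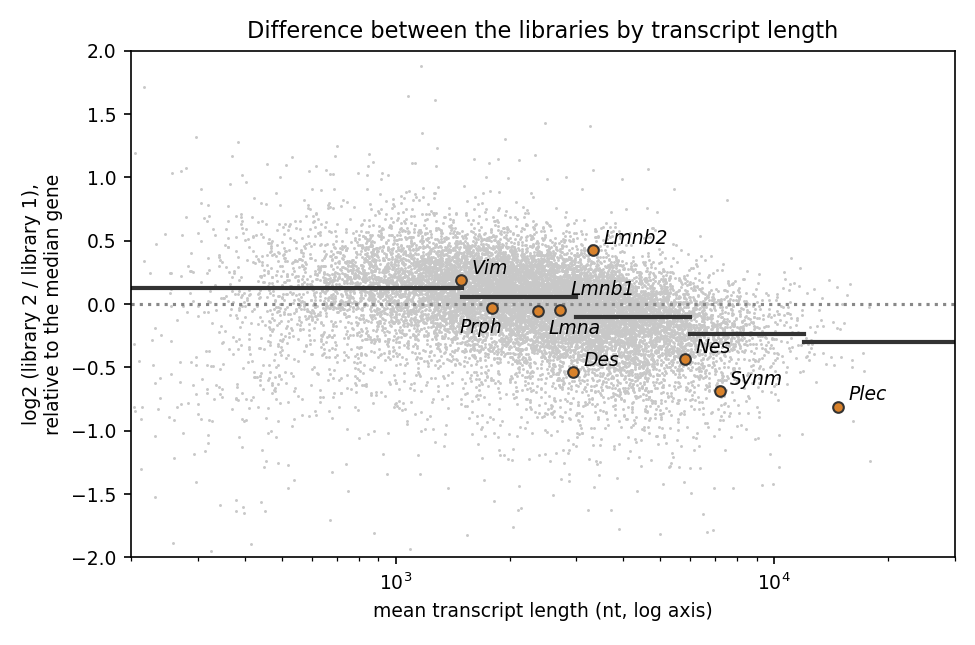
Log2 ratio of replicate 2 to replicate 1 (vertical axis, relative to the median gene, shown from -2 to 2) against mean transcript length in bases (logarithmic axis). Grey points are genes whose mean level was 1 TPM or more, black bars the medians of 5 length classes, and labelled points 9 of the 10 genes. Plec, Synm, Des and Nes lie furthest below the bar of their class and Lmnb2 furthest above it. Prph (-0.08), Lmna (-0.11) and Lmnb1 (-0.10) lie slightly below theirs and Vim (0.07) slightly above.

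Lists of several cell types had medians below 0 in this ratio. In the smooth muscle list, with a median of -0.22, 2 of 6 genes were lower in replicate 2 by more than 1.5-fold (6.08% of all genes were), Myh11 (2113 and 1170 TPM) and Smtn (475 and 278 TPM). Acta2, Tagln and Actg2 in the same list differed by -0.14, -0.09 and -0.17, within the range of -0.21 to 0.19 that held the middle quartiles of all genes. The fibroblast list had a median of -0.24, with 2 of 6 genes lower by more than 1.5-fold, Col1a1 (1071 and 716 TPM) and Pdgfra (34.6 and 22.9 TPM). Dcn (0.09) and Lum (0.34) of the same list were higher in replicate 2. Its summed share of gene TPM was 0.561% and 0.560% in replicates 1 and 2. The endothelial list had a median of -0.32 and the pericyte list one of -0.45, each with 1 of 6 genes lower by more than 1.5-fold. Egfl7 (0.45) and Esam (0.05) of the endothelial list were higher in replicate 2. The summed share of gene TPM in replicates 1 and 2 was 0.0249% and 0.0286% for the endothelial list. For the pericyte list it was 0.0214% and 0.0196%. Among the 10 partners of desmin 2, Flnc (50.4 and 29.5 TPM) and Bag3 (38.0 and 22.9 TPM), were lower by more than 1.5-fold. The 5 matched plakins had a median of -0.51, and the 9 keratins and uroplakins a median of 0.15, led by Upk1a (1977 ± 516 TPM), Upk2 (867 ± 205 TPM) and Krt19 (637 ± 94.4 TPM). The 4 mesothelial genes had a median of 0.63, and 1 of them, Msln (6.24 and 15.3 TPM), was past 2-fold (1.84% of all genes were). Msln and Wt1 (2.42 and 4.49 TPM) were higher in replicate 2 by more than 1.5-fold (2.21% of all genes were). Upk3b (120 and 174 TPM) was higher by less. The part of tissue composition was not tested.

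Annotation lists 54 transcripts for the 10 genes, 22 of them for Plec. Of these, 18 had a mean share of at least 10% of the TPM of their gene, and 41 had a value above 0 in both libraries. Des, Nes, Lmnb1 and Plec each had 1 such transcript, and Vim had 4. Nes-201 held 82.9% and 95.7% of Nes TPM and the coding transcript of Lmnb1 held 96.9% and 91.7% of its TPM. Gfap-201 held 68.4% and 90.7% at a gene level under 1 TPM, and Gfap-203, a noncoding form of 356 bases, held 28.9% in replicate 1 from 1.27 expected counts and 0 in replicate 2.

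**Figure D3:**
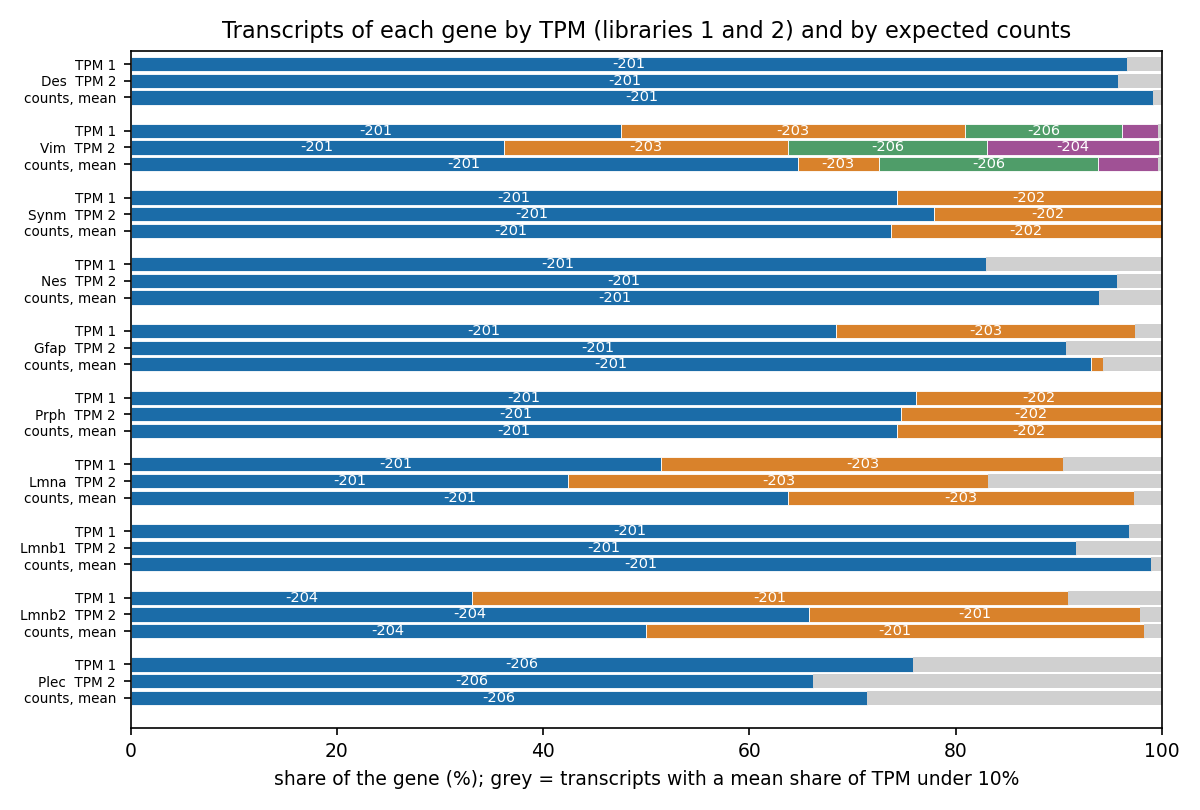
Share of each gene's abundance taken by its transcripts in percent, for TPM in library 1, TPM in library 2 and the mean over both libraries of expected counts. Colours mark transcripts with a mean share of TPM of at least 10%, labelled by number, and grey the rest. Des is almost all Des-201, Vim is divided among 4 forms whose shares differ between TPM and counts, and the order of both main Lmnb2 transcripts is opposite in the libraries.

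Lamin A and lamin C transcripts did not differ in abundance beyond the spread between the libraries. Lmna-201, which encodes lamin A with 665 codons, held 51.5% and 42.5% of Lmna TPM, and Lmna-203, lamin C with 574 codons, held 39.0% and 40.7%. Of the TPM of both forms, 56.9% in replicate 1 and 51.0% in replicate 2 was lamin A (54.0% ± 4.1). The retained-intron form Lmna-207 held 6.09% and 12%. The authors' splice junctions, whose reads are summed over both libraries and placed on mm9, give a separate view. The intron into exon 10, common to both lamins, had 3290 reads, and the intron from exon 10 to exon 11, used by lamin A and the minor form Lmna-204 but not by lamin C, had 1668. That is 50.7 per 100 reads of the shared intron (95% interval 47.8 to 53.8, from the exact binomial interval, counting error only). The next intron, which Lmna-207 shares as well, had 1274 reads, or 38.7 per 100 (36.3 to 41.3). Junction reads along the introns before exon 10 ran from 1788 to 4432, a spread larger than the gap between these estimates.

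Lmnb2 was divided between transcripts that cannot be told apart by splicing. The longer one, of 3531 bases, held 57.8% of Lmnb2 TPM in replicate 1 and 32.1% in replicate 2, and the shorter one, of 3370 bases, held 33.1% and 65.8%. Both have 12 exons with the same introns, and they differ in the annotated end of the last exon and in the annotated start codon (615 and 596 codons). Neither share differed from the other beyond the spread, at 45.0% ± 18.1 and 49.4% ± 23.1. Together they held 90.9% and 97.9%.

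The skipped form of vimentin had no junction read. Vim-206, which lacks the 86 bases of exon 8 shown above, was given 15.3% and 19.3% of Vim TPM and 21.3% ± 4.5 of its expected counts by the authors' quantification. The junction from exon 7 to exon 9, which this form needs, had 0 reads, while the junction into exon 8 had 17509, which allows a share of up to 0.0171%. The junction out of exon 8 had 14927 reads. The 8 introns of Vim-201 had from 11985 to 19451 reads, and 99.7% of all junction reads within Vim lay on annotated introns.

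For peripherin and synemin, junctions show the spliced form only, since a retained intron has no junction of its own. Intron 4 of Prph-201, the one that Prph-202 keeps, had 97 reads, beside 146 on intron 3 and 135 on intron 5. Prph-201 held 76.2% and 74.7% of Prph TPM, and Prph-202 held 23.8% and 25.3%. The intron that Synm-201 removes had 3828 reads, and the other introns of Synm had 4502, 2310 and 3319.

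Plectin used several first exons, and estimates of their use differed. By TPM, Plec-206 held 75.8% of Plec in replicate 1 and 66.2% in replicate 2, and Plec-201 held 7.56% and 8.91%. No other Plec transcript reached 6% of this TPM in either library. The posterior mean TPM in the same tables gave Plec-206 less, 65.6% and 55.9%, and Plec-217 more, 10% and 11.9%. By junctions, 370 reads joined a first exon to the shared second exon. Of these 149 came from the exon of Plec-206, or 40.3% (95% exact binomial interval 35.2 to 45.5), and 109 from that of Plec-201, or 29.5% (24.9 to 34.4).

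The other first exons took smaller parts. The exon of Plec-204 had 37 reads, an interval of 7.14% to 13.5%, against 1.90% and 5.66% of TPM. The exon shared by Plec-202, Plec-212 and Plec-218 had 34 reads, or 9.19% (6.45 to 12.6), against 2.85% and 3.47% of TPM. The exon of Plec-209, Plec-213 and Plec-214 had 23 reads, or 6.22% (3.98 to 9.18), against 1.48% and 0.448%. It is the first exon only in Plec-209. The intron before it in Plec-213, shared with Plec-210, had 25 reads. The exon of Plec-203 and Plec-220 had 14 reads, or 3.78% (2.08 to 6.27), against 5.49% and 4.73%. Plec-217, given 2.93% and 5.46% of TPM and more by the posterior mean, had 0 reads, which allows a share of up to 0.811% of the first-exon reads. TPM shares rest on all reads of transcripts that differ by their first exon within 14855 bases or so, whereas junction shares rest on 370 reads, and the source of the gap was not tested.

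**Figure D4:**
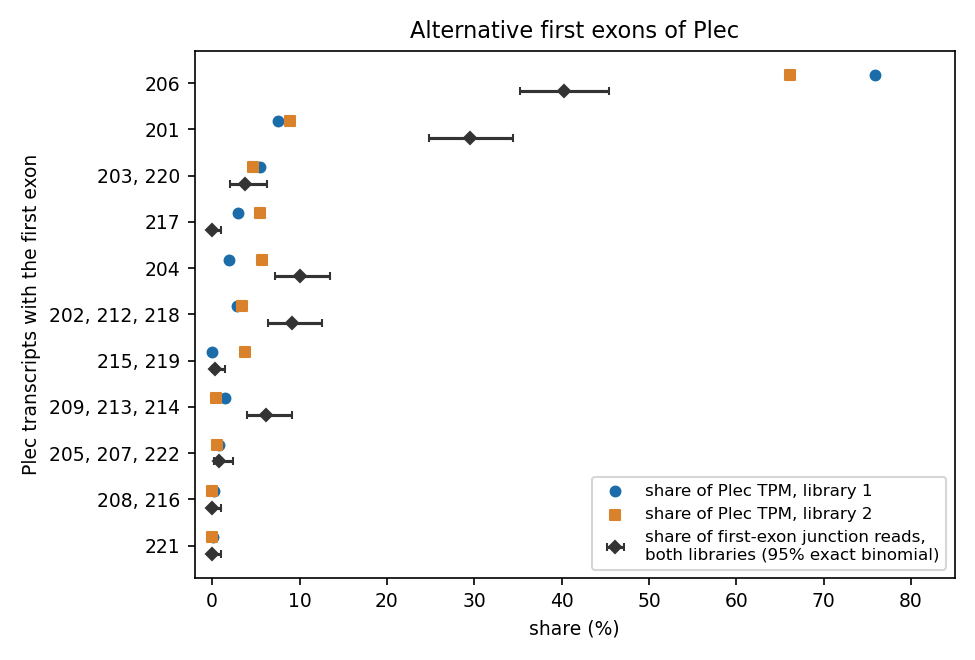
Share of Plec in percent by alternative first exon, with TPM shares in library 1 (circles) and library 2 (squares) and shares of the 370 first-exon junction reads of both libraries (diamonds, bars the 95% exact binomial interval). Plec-206 leads by every measure, but at 40.3% of junction reads against 75.8% and 66.2% of TPM, and Plec-201 shows the opposite gap.

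Further along Plec, the long exon that encodes the rod domain was nearly always included. The junction that skips it had 17 reads and the junction into it had 951, so the skip took 1.76% (1.03 to 2.80). A short exon of 15 bases after the shared second exon was joined by 3 reads against 465 that passed over it, 0.641% (0.132 to 1.86). The junction out of this short exon had 0 reads. In all, 42 of 49 annotated introns of Plec had reads, and 98.5% of junction reads within the gene lay on annotated introns.

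Coverage of introns along each gene varied by less than 4-fold for 8 of the 10 genes. In Des it ran from 43695 reads on the first intron to 89721 on intron 5 and 85081 on the last, a 2.05-fold range. In Synm the first intron had the most reads, 4502, and intron 2 the fewest, 2310. The exceptions were Plec, where the first intron of Plec-206 had 149 reads and intron 30 had 951, and Gfap, with 1 to 18 reads on each intron. For 1 intron of Plec-206 the reads lay on a junction of equal length 4 bases aside and were taken from there. In Lmnb1 reads ran from 108 to 325, in Lmnb2 from 162 to 371 and in Nes from 33 to 74.

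**Figure D5:**
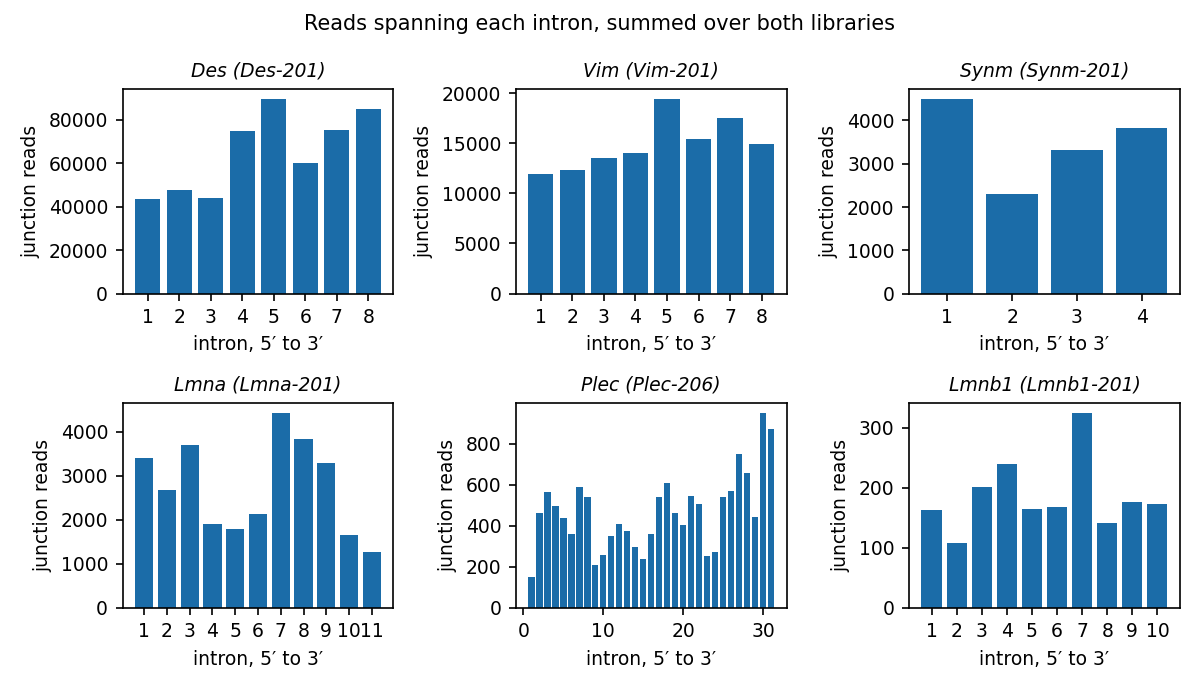
Junction reads on each intron of 6 transcripts, counted from the 5′ end and summed over both libraries, with a separate linear scale from 0 in each panel. Des has the most reads (43695 to 89721), reads of Lmna are lowest at introns 10 and 11, which the lamin C transcript lacks, and the first intron of Plec-206 has fewest reads of its 31.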

How the data were processed

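RNA was measured in 2 libraries of 1 group, so levels are described and no p-value is given. The authors deposited gene and transcript tables on mm10 (GENCODE M4, per the labels) with expected counts and TPM, to which a posterior mean is added per the file headers. They also deposited mm9 tables: RPKM of Ensembl genes (release 65) and splice junctions, each with a read count that is the sum of 2 values. No label says which library each of these 2 values, or of a gene's 2 RPKM values, belongs to. The junction sum and the mean RPKM were therefore used, and junction shares carry no spread between the libraries. The aligner and the counting tool were not given in the sources used here. Rows other than Ensembl genes held 5.01% and 5.98% of counts and were left out.

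Symbols, positions and sequences come from GENCODE M21 (mm10), where 42462 of 43346 gene identifiers matched. All 54 transcripts matched, 49 with the same length. Junctions were matched to transcripts on mm9 by identifier, and no coordinates were converted. Other intervals than the lamin one are exact binomial. Genes overlapping on the same strand (Parp10, Mir1942 and Gm25720 at Plec) may share reads.

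The ratio step was tested on simulated data. Alternatives were the posterior mean TPM, other pseudocounts (0.1 and 1) and filters, CPM, edgeR 4.0.16 TMM and DESeq2 1.42.0 size factors (R 4.3.3), mm9 values, mitochondrial genes left out, and each library left out. Other steps used Python 3.11.15, pandas 2.3.3, numpy 2.4.6, scipy 1.17.1 and matplotlib 3.10.9. Named genes are the 10 genes, those of their transcripts that hold 10% or more on average, and in each of 17 context lists the 3 highest and those under 1 TPM in both libraries; others named were chosen after their values were seen. A few list genes are left unreported here, though list counts and sums include them. The genes and lists were chosen with earlier results of these data known.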

Additional observations from a re-analysis of the deposited data

How the results depend on the processing

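No paired analysis was possible because the series holds 1 group. The summed share of the 10 genes, 0.302% of gene TPM, moved to 0.361% with mitochondrial genes left out of the total, to 0.635% as a share of expected counts, which weight long transcripts up, and to 0.423% by the mm9 mean RPKM. Leaving out a library gave 0.279% to 0.324%, but with 2 libraries a single value always lies within 1 SD of their mean, so this says nothing about stability. The number of genes past the fold between the libraries went from 0 at 2-fold to 2 at 1.5-fold, and stayed 0 with no filter, a filter of 5 TPM, the posterior mean, TMM and DESeq2 size factors. Of 178 alternative values other than those, 136 were on the same side of their limit or within 1 SD and 42 moved. Of 85 log2 ratios 2 changed sign, both of Gfap between the libraries: 0.01 became -0.02 with 1 TPM added and -0.02 by the posterior mean. Depth limits Gfap (51 and 88 counts) and the first exons of Plec (370 junction reads), and with 2 libraries no SD is precise.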
